A study of Saccharomyces cerevisiae with 7 samples.

Results

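The genes described are ABF2, POR1 and CIT1, 3 of the 337 genes whose readthrough index (RTI) was measured by GRO-seq in budding yeast. All of them are nuclear genes whose protein products work in mitochondria. They were found in the main part of the deposited table by their standard names, through the systematic names YMR072W, YNL055C and YNR001C. They were chosen by their function with their RTI in mutant and wild type (WT) libraries already known, so the RTI contrast between the strains is given for them as a description and not as a test. GRO-seq labels RNA in a run-on reaction, so that only RNA extended by polymerases already engaged on the genome is sequenced. The RTI of a gene compares reads on both sides of its annotated mRNA 3' end. Reads that lie 50 to 500 nt past that end are divided by those that lie 50 to 500 nt ahead of it. An RTI of 0.1 stands for 1 read beyond the 3' end for each 10 reads before it.

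Both strains are haploid yeast of the BY4733 background, with the genotype given as sua7-1 for 3 libraries (replicates 2, 3 and 4) and as wt for 4 libraries (replicates 1 to 4). The mutation is in the gene of TFIIB, a general transcription factor which joins promoter-bound factors to RNA polymerase II, and the mutant is represented by a single strain. Cells of both strains were grown in YPD at 30 °C to an A600 of 0.8 and labelled with BrUTP for 5 min at the same temperature. The paper names 3 biological replicates per strain, and the sources used here do not tell which WT libraries are meant, nor whether each came from its own culture. WT replicate 4 stands apart, since it holds an RTI for 38 genes against 314 to 337 in the other libraries. It holds none for ABF2, POR1 or CIT1, so each of these genes has 3 mutant and 3 WT values. The table gives ratios without read numbers, so the exact depth behind each value is unknown. The paper kept genes with a minimum length, a minimum read density in the coding region and a minimum distance to the next same-strand gene. Shares over all measured genes therefore refer to a selected set.

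Most mitochondrial proteins are encoded in the nucleus, transcribed by RNA polymerase II, translated in the cytosol and imported. ABF2 encodes an HMG-box protein that packages mitochondrial DNA into nucleoids. POR1 encodes the voltage-dependent anion channel, or porin, through which small metabolites cross the outer membrane. CIT1 encodes the mitochondrial citrate synthase, which joins acetyl-CoA and oxaloacetate in the first step of the tricarboxylic acid (TCA) cycle. At the 3' end of a yeast gene, the transcript is cleaved and polyadenylated at a site marked by an efficiency element rich in UA repeats and a nearby A-rich positioning element. The polymerase then normally stops within a short distance.

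The 3' ends of these genes differ in the short sequence elements that were searched for. The AT content of the 200 nt after the stop codon was close, at 69.5% in ABF2, 70% in POR1 and 71% in CIT1. Its median over the measured genes was 71.5%. The stretches below are of the R64 genome on the coding strand, 30 bases each, and show the first match after the stop codon to a hexamer of the efficiency element type. The hexamers searched were TATATA and its variants with a single change, written TACATA in one case and TATGTA in the other. Matches to these hexamers that lie wholly within a stretch are in capitals, and matches that run past its end are not marked. The stretch of POR1 is chrXIV:517964-517993 (minus strand), that of CIT1 is chrXIV:629527-629556 (minus strand) and that of ABF2 is chrXIII:412216-412245 (plus strand).
POR1: acgTATATAtctaaTATATATAtgttcact
CIT1: tagtttataattTATATAaaTATATAttac
ABF2: gtttttatatccTATGTAagtcttcaaact

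In POR1 the first TATATA began 4 nt after the stop codon, and the 200 nt after the stop codon held 4 matches, some of them overlapping. In CIT1 the first began at 78 nt, and there were 3 matches with a single TACATA besides. ABF2 had no TATATA in these 200 nt, and its only match was TATGTA, which began at 108 nt. The hexamer TATATA reads the same on both strands and was found in the same window of 53.5% of the 331 measured genes with a position and of 48.3% of the 6002 protein-coding nuclear genes. TATGTA was found on the coding strand in 27.8% and 25.2%, and on the other strand, where it reads as TACATA, in 24.2% and 25.6%. AATAAA, a form of the A-rich element, had 2 matches on the coding strand of ABF2, the first at 59 nt, and none in POR1 or CIT1. It was present on that strand in 39.0% of the measured genes and on the other strand in 48.6%. AAAAAA, found on the coding strand of 43.8% of the measured genes and on the other strand of 54.4%, had no match on the coding strand of any of the 3 genes. On the other strand AATAAA had 1 match in POR1, 2 in ABF2 and 0 in CIT1, and AAAAAA had 5 overlapping or separate matches in ABF2 alone of the 3. A match describes letters in the window and does not locate a cleavage site.

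Since TFIIB works at promoters, the 250 nt before the start codon were searched for TATAAA and for the longer forms written TATATAA in one case and TATAAAA in the other. CIT1 had TATATAA with an overlapping TATAAA about 200 nt before the start codon (matches beginning at 201 and 199 nt), in chrXIV:631242-631271. POR1 had TATATAA at 106 nt, in chrXIV:518933-518962. Both stretches are given 5' to 3' on the coding strand, with the matches in capitals.
CIT1: tccatccatTATATAAAtgctcaaaacttg
POR1: agttgatctacTATATAActacccccaact

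On the other strand POR1 also had TATAAA inside a longer match, and CIT1 had TATATAA. ABF2 had no match to any of the 3 forms on either strand. On the coding strand TATAAA was present in 32.0% of the measured genes, TATATAA in 20.2% and TATAAAA in 15.1%, and on the other strand in 20.8%, 13.0% and 8.16%. No form was common to all 3 genes.

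In the annotation of R64, ABF2 lies on chromosome XIII from 411569 to 412120, POR1 on chromosome XIV from 517994 to 518845 and CIT1 on chromosome XIV from 629622 to 631061. None of them has an intron. Their coding spans are 552, 852 and 1440 nt, against a median of 1029 nt over the 331 genes with a position. In all 3 the next annotated gene downstream is convergent, as in 76.7% of the measured genes. IRC21 ends 147 nt after the stop codon of ABF2, and OCA2 ends 151 nt after that of POR1. For CIT1 the convergent gene, DOM34, ends 1005 nt away, and the centromere of chromosome XIV lies between them, from 747 to 864 nt after the stop codon of CIT1. In 66.5% of the measured genes, an opposite-strand gene ends less than 500 nt from the stop codon. On their own strand, the next gene starts 1861 nt after ABF2 (RCO1), 1280 nt after POR1 (YNL058C) and 2479 nt after CIT1 (RLP7). None of these neighbours is among the 337 genes, so their own RTI was not analysed here. The distances are counted from the stop codon, because the mRNA ends behind the RTI were not analysed here, and so they do not place the RTI windows exactly.

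**Figure D1:**
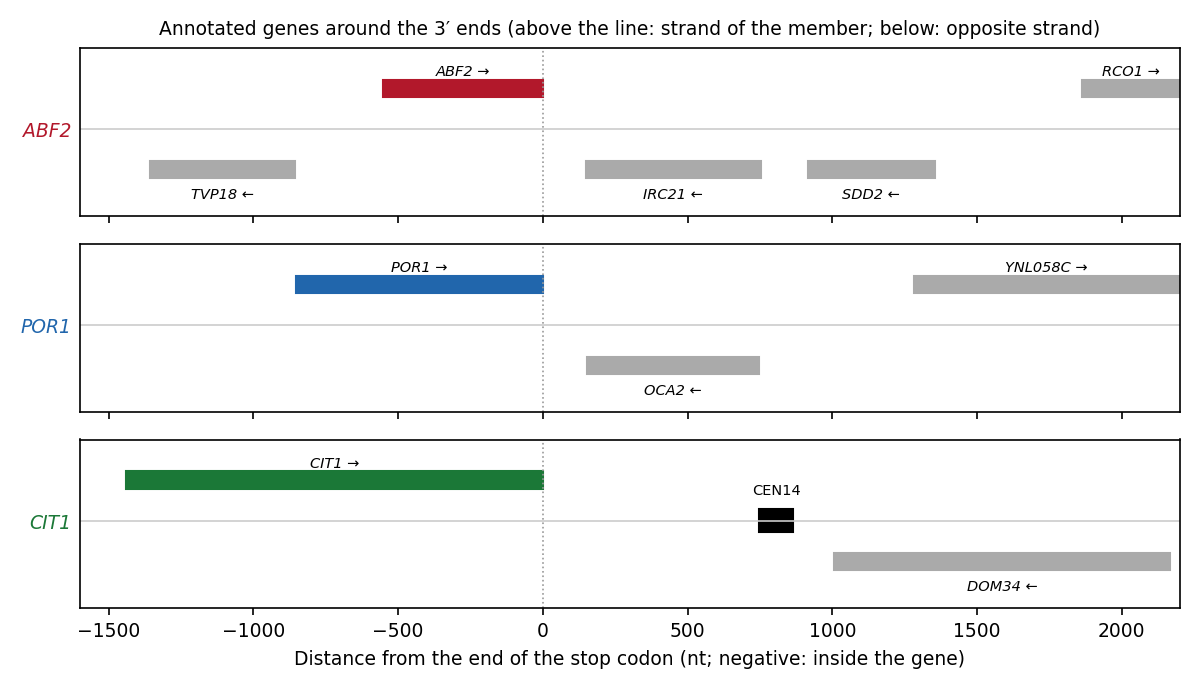
Annotated genes around the 3' ends of ABF2, POR1 and CIT1 in R64, with the distance from the end of the stop codon in nt on the x axis, genes on the strand of the named gene above the line and genes of the opposite strand below it. Transposon and tRNA genes upstream of POR1 are not drawn. A convergent gene ends 147 nt after ABF2 and 151 nt after POR1, while CIT1 is followed by the centromere (black box).

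The sequence around each 3' end is unique in the genome at the length of a short read. Of the 30-base words in the 500 nt before and the 700 nt after each stop codon (471 and 671 words per gene), 0 occurred elsewhere in R64 on either strand. The related genes POR2 and CIT3 therefore share no 30-base word with these windows.

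In WT cells the signal beyond the 3' end was low in all 3 genes. For ABF2 the RTI was 0.0126 in WT replicate 1, 0.00795 in WT replicate 2 and 0.00288 in WT replicate 3, and its mean was 0.00781 ± 0.00485 (SD, n = 3). POR1 had 0.0150, 0.00321 and 0.00370 in the same libraries, with a mean of 0.00731 ± 0.00669 (SD, n = 3). Replicate 1 was the highest of the 3 for both genes. It also had the highest median RTI over all genes, at 0.0142 against 0.00349 in replicate 2 and 0.00459 in replicate 3. CIT1 had 0.00693 in replicate 1, was listed at 0 in replicate 2 and had 0.00351 in replicate 3. Its mean was 0.00348 ± 0.00347 (SD, n = 3). Without read numbers, the 0 of CIT1 cannot be set against the reads behind it. The coefficient of variation over the WT libraries was 62.2% for ABF2, 91.5% for POR1 and 99.6% for CIT1, so the order of the 3 WT means lies within the spread of the libraries.

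In the mutant each of these genes had signal beyond the 3' end in each library. For ABF2 the RTI was 0.158 in sua7-1 replicate 2, 0.362 in sua7-1 replicate 3 and 0.192 in sua7-1 replicate 4, and its mean was 0.237 ± 0.109 (SD, n = 3). In replicate 3 this is more than 1 read downstream for every 3 upstream. POR1 had 0.0600, 0.105 and 0.0890, with a mean of 0.0847 ± 0.0229 (SD, n = 3). CIT1 had 0.0551, 0.0848 and 0.0719, with a mean of 0.0706 ± 0.0149 (SD, n = 3). All 3 genes were highest in replicate 3 and lowest in replicate 2, which are also the mutant libraries with the highest and the lowest median RTI over all genes (0.0850 and 0.0414). The RTI averages over a culture, so more cells with readthrough and more readthrough per cell cannot be told apart.

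**Figure D2:**
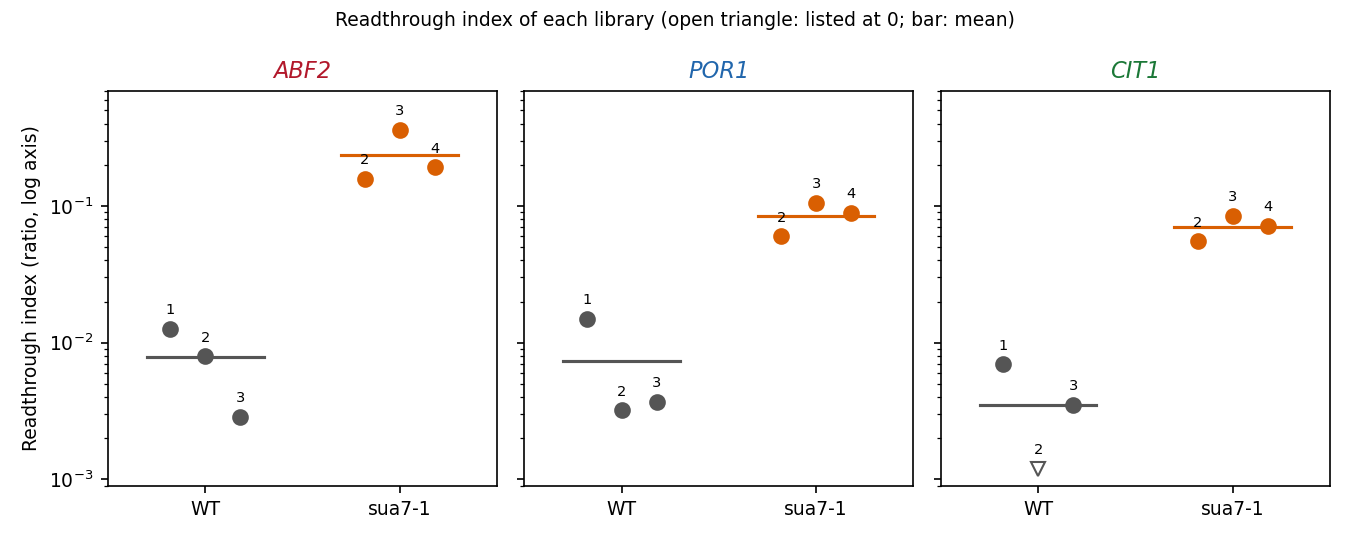
RTI of ABF2, POR1 and CIT1 in each library on a log axis, with WT libraries in grey, sua7-1 libraries in orange, the replicate number above each point and a bar at the mean of the strain. The open triangle marks the WT library in which CIT1 is listed at 0. In each gene the lowest sua7-1 library lies above the highest WT library.

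For all 3 genes the mutant and WT libraries did not overlap and the mutant was higher, as in 78.3% of the 337 genes (the mutant lay wholly lower in 2.67%). The lowest mutant value was 12.6 times the highest WT value for ABF2, 7.94 times for CIT1 and 3.99 times for POR1. The ratio of the mean RTI in the mutant to that in WT was 30.4 for ABF2, 20.3 for CIT1 and 11.6 for POR1. On the log2(RTI + 0.002) scale, where the added constant makes the change of genes with a very low RTI look smaller, limma gave log2 fold changes of 4.65 for ABF2 (standard error 0.58), 3.95 for CIT1 (0.60) and 3.41 for POR1 (0.58). All 3 passed the limits of a log2 fold change beyond 1 and an adjusted p under 0.05, as did 253 of the 337 genes in the same direction (75.1%), with 0.89% called lower, so these calls do not set the 3 genes apart from the rest. The log2 fold change of CIT1 ran from 2.60 to 4.83 between added constants of 0.01 and 0.0005, more widely than that of ABF2 (3.75 to 4.95) or POR1 (2.49 to 3.74).

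The change of ABF2 was near the top of the table. It ranked 8 of 337 by log2 fold change, against 29 for CIT1 and 67 for POR1. Over the 337 genes the median was 2.44, which ABF2 exceeded by 2.21, CIT1 by 1.51 and POR1 by 0.97. By mean RTI in WT the genes were nearer the middle, at ranks 169 (ABF2), 177 (POR1) and 238 (CIT1) from the top. By mean RTI in the mutant ABF2 was at rank 45, POR1 at 147 and CIT1 at 162.

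**Figure D3:**
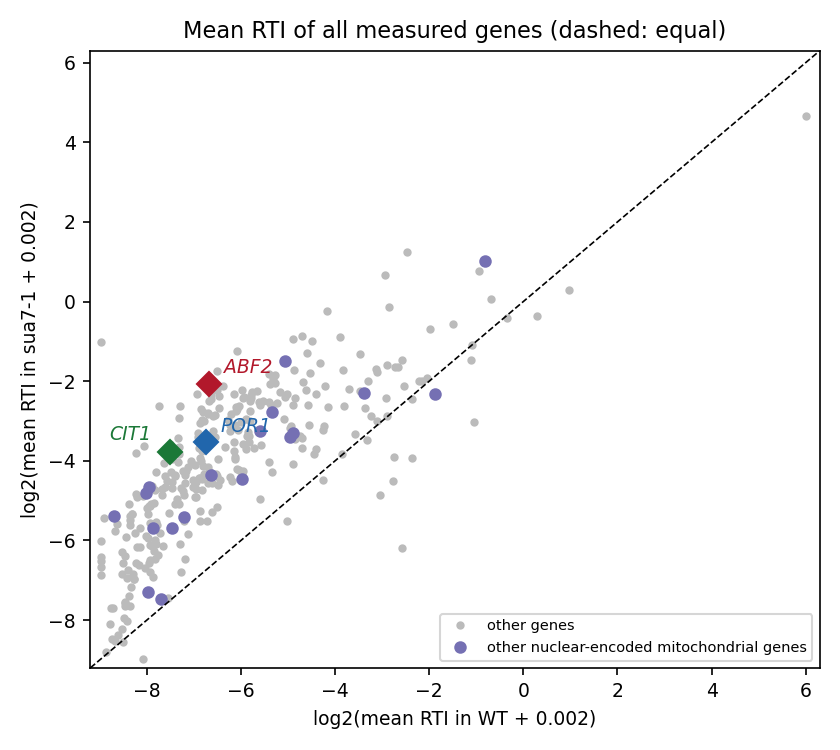
Mean RTI of each of the 337 genes in WT (x axis) and in sua7-1 (y axis), both as log2(mean RTI + 0.002), with ABF2, POR1 and CIT1 as diamonds, the other 18 measured genes of the mitochondrial list in purple and all further genes in grey. ABF2 is at rank 169 on the x axis and at rank 45 on the y axis, counted from the highest RTI.

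The RTI of the 3 genes was also set against the median gene of the same library, as a description. ABF2 was at 0.887, 2.28 and 0.627 times the library median in the WT replicates 1, 2 and 3. In the sua7-1 replicates 2, 3 and 4 it was at 3.82, 4.25 and 2.83 times. POR1 was at 1.06, 0.919 and 0.805 times the median in WT and 1.45, 1.24 and 1.31 times in the mutant. CIT1 was below the median in WT, at 0.489, 0 and 0.764 times, and near it in the mutant, at 1.33, 0.998 and 1.06 times. In the mutant, 81.0% to 89.8% of the genes of a library had a lower RTI than ABF2, against 56.0% to 59.9% for POR1 and 49.2% to 57.0% for CIT1.

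A further fit was made on RTI values taken relative to the library median, so that a change shared by most genes drops out. In it 21 genes passed upward and 55 downward, with a median of -0.20 over all genes. Under this scaling ABF2 had a log2 fold change of 1.62 (standard error 0.47) and was among these 21 genes. Since ABF2 was chosen with its RTI known, this is a description and not a test. CIT1 had 1.69 (0.74) and POR1 0.48 (0.27), and neither passed.

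**Figure D4:**
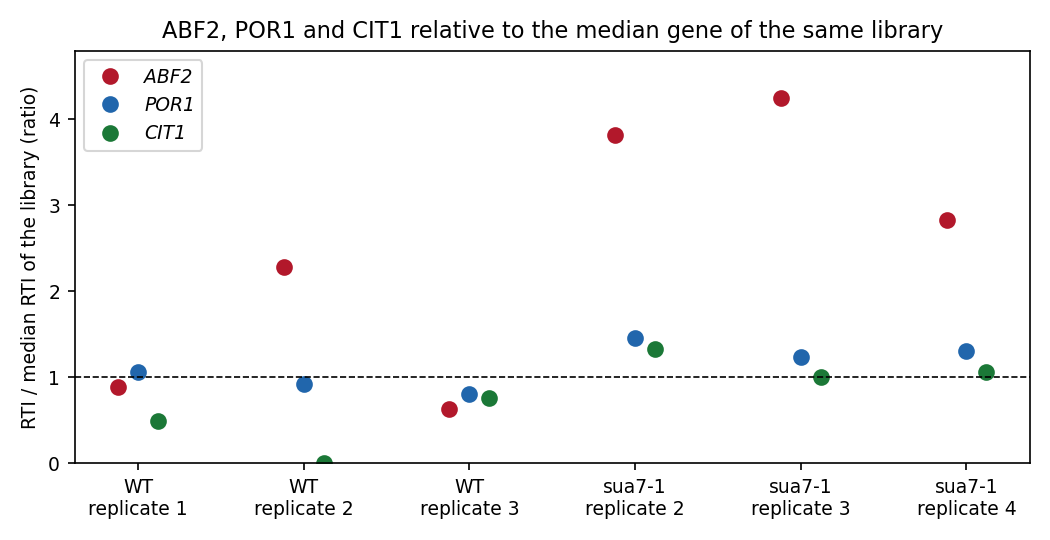
RTI of ABF2 (red), POR1 (blue) and CIT1 (green) divided by the median RTI of all genes in the same library, for the 3 WT and 3 sua7-1 libraries that hold a value, with a dashed line at 1. ABF2 lies at 2.83 to 4.25 times the median in the mutant, while POR1 and CIT1 lie between 0.998 and 1.45 times.

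Within a library, the RTI of ABF2 was 2.63, 3.44 and 2.16 times that of POR1 in sua7-1 replicates 2, 3 and 4. In WT replicates 1, 2 and 3 the same ratio was 0.837, 2.48 and 0.779. The ranges of the strains overlap, since ABF2 was the higher of both genes in WT replicate 2. POR1 and CIT1 were close to each other in the mutant, with POR1 at 1.09, 1.24 and 1.24 times CIT1. In the 2 WT libraries where CIT1 was above 0, replicates 1 and 3, the ratio was 2.17 and 1.05. The RTI of ABF2 was 2.87, 4.27 and 2.67 times that of CIT1 in the mutant and 1.82 and 0.821 times in these WT libraries. WT replicate 2 gave no ratio, since CIT1 was listed at 0 there while ABF2 was at 0.00795. The strains can therefore not be said to be separate in this ratio.

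The genes most like each of the 3 were found over the 6 libraries by the root mean square difference of log2(RTI + 0.002). For ABF2 they were RPP2B, a protein of the ribosomal stalk (0.43), NHP6A, a nuclear HMG-box protein (0.45), and THR4, threonine synthase (0.45), out of 285 genes with a value in the same libraries. The mutant values of RPP2B were 0.124, 0.234 and 0.185, and its WT values 0.0136, 0.00524 and 0.00545. For POR1 they were RPL39, a ribosomal protein of the large subunit (0.18), TIP1, a cell wall mannoprotein (0.22), and STM1, a ribosome-associated protein (0.29). For CIT1 they were NOP10, of the box H/ACA small nucleolar ribonucleoproteins (0.45), RDL2, a rhodanese (0.48), and SEC61, the pore of the endoplasmic reticulum translocon (0.51). Among the 3 genes themselves, POR1 and CIT1 differed by 0.70, ABF2 and POR1 by 1.09 and ABF2 and CIT1 by 1.54. In the list of genes ordered by likeness to ABF2, POR1 was at place 47 and CIT1 at place 81.

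Of 307 nuclear-encoded mitochondrial genes listed by function, 21 were among the 337, and 18 without ABF2, POR1 and CIT1. The list does not cover all mitochondrial proteins. Of the 18, 13 rose in the mutant (72.2%, against 75.1% of all genes), 0 fell and 5 did not pass. Over the 18 genes the median log2 fold change was 1.94, and over all genes it was 2.44. ABF2 and CIT1 had the highest log2 fold changes of the 21, and POR1 came after ADH3.

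Among genes of the outer membrane, where porin sits, TOM22, a receptor of the protein import complex, rose from 0.00203 ± 0.00186 to 0.0377 ± 0.0144 (SD, n = 3 each), a log2 fold change of 3.33 (adjusted p = 0.00043 from limma). TOM40, the import pore, had a log2 fold change of 1.37 (adjusted p = 0.098 from limma), and its values overlapped, since 0.00334 in sua7-1 replicate 2 was below 0.00659 and 0.00513 in WT replicates 1 and 2. TOM40 passed without sua7-1 replicate 2 (log2 fold change 2.20, adjusted p = 0.0063 from limma) or without WT replicate 1 (1.56 and 0.027). TOM6, a small subunit of the same complex, had a log2 fold change of 0.21 and was listed at 0 in a library of each strain. Porin and the import subunits of the same membrane thus covered log2 fold changes from 0.21 to 3.41.

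The TCA cycle genes beside CIT1 had lower log2 fold changes than CIT1, a difference that was not tested. IDH1 and IDH2 encode the subunits of isocitrate dehydrogenase. IDH2 rose from 0.00807 ± 0.00650 to 0.0469 ± 0.00814 (SD, n = 3 each), a log2 fold change of 2.47 (adjusted p = 0.0024 from limma). IDH1 had a higher RTI in both strains, at 0.0303 ± 0.0285 and 0.0925 ± 0.0184, and rose by 1.95 on the log2 scale (adjusted p = 0.019 from limma). It no longer passed when sua7-1 replicate 3 was left out (log2 fold change 1.80, adjusted p = 0.070 from limma), nor without WT replicate 2 (1.27 and 0.087) or WT replicate 3 (1.93 and 0.055). ACO1, the aconitase that works just after citrate synthase, had mutant values of 0.00672, 0.00156 and 0.00471, and WT values of 0.00344, 0.00124 and 0.00115. Its log2 fold change of 0.63 did not pass (adjusted p = 0.29 from limma), and the strains overlapped.

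The subunits of pyruvate dehydrogenase, which supplies acetyl-CoA to citrate synthase, had unlike values, a difference that was not tested. PDA1, its E1 alpha subunit, had mutant values of 0.0153, 0.0280 and 0.0229, and in WT it had 0.000562 in replicate 1, 0 in replicates 2 and 3 and 0.00110 in replicate 4. Its log2 fold change was 3.30 (adjusted p = 0.00020 from limma). PDX1, which anchors the E3 component, had a high RTI in WT, at 0.270 ± 0.0111 (SD, n = 3), and 0.199 ± 0.0107 (SD, n = 3) in the mutant. Each mutant value of PDX1 lay below each WT value, with a log2 fold change of -0.44 (adjusted p = 0.39 from limma).

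Of the respiratory genes, QCR8, a subunit of the cytochrome bc1 complex, rose by 2.29 on the log2 scale (adjusted p = 0.0035 from limma). NDE1, an external NADH dehydrogenase, had a log2 fold change of 1.92 (adjusted p = 0.030 from limma) over 2 mutant libraries, since it has no value in sua7-1 replicate 2. The call did not hold when WT replicate 2 was left out (log2 fold change 1.56, adjusted p = 0.084 from limma), nor without WT replicate 3 (1.61 and 0.11). It was also lost with an added constant of 0.0005 (2.00, adjusted p = 0.054 from limma). Leaving out sua7-1 replicate 3 or 4 leaves 1 mutant library, which the fit assumes to vary like the others, and gave log2 fold changes of 2.14 (adjusted p = 0.080 from limma) and 1.70 (0.14). ATP1, the alpha subunit of the ATP synthase, had 0.172 and 0.228 in the 2 mutant libraries with a value. Its WT values of 0.0924, 0.0858 and 0.102 did not overlap with these. Its log2 fold change of 1.07 did not pass (adjusted p = 0.094 from limma). It passed with an added constant of 0.01 (1.01, adjusted p = 0.023 from limma) and with the trended and robust variances of limma (1.07 and 0.045).

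The remaining 7 genes of the list all rose. ADH3, the mitochondrial alcohol dehydrogenase, went from 0.0278 ± 0.00806 to 0.353 ± 0.108 (SD, n = 3 each), a log2 fold change of 3.56, and HSP60, the matrix chaperonin, from 0.00185 ± 0.000914 to 0.0335 ± 0.0222, one of 2.99. ILV3, a dihydroxyacid dehydratase of branched-chain amino acid synthesis, had a log2 fold change of 3.29 and ISU1, a scaffold for iron-sulfur clusters, one of 2.38. MRP13, a protein of the mitochondrial ribosome, had the highest RTI of the list in both strains, at 0.571 ± 0.108 in WT and 2.03 ± 0.314 in the mutant (SD, n = 3 each), with a log2 fold change of 1.83. On its own strand, GCD2 begins 307 nt after the stop codon of MRP13. The next same-strand gene begins 341 nt after PDA1, 399 nt after LEU4 and 454 nt after ATP1. These distances are shorter than the minimum same-strand distance stated in the paper. TDH3 begins 698 nt after the stop codon of PDX1, also on its own strand. Whether reads of these neighbours enter the RTI was not tested. TIM17, of the inner membrane import channel, had a log2 fold change of 1.91, and LEU4, the main isopropylmalate synthase, one of 1.55, each over 2 mutant libraries. TIM17 no longer passed when WT replicate 2 was left out (log2 fold change 1.47, adjusted p = 0.066 from limma). With a single mutant library left, under the same assumption, it had 2.09 without sua7-1 replicate 3 (adjusted p = 0.058 from limma) and 1.73 without sua7-1 replicate 4 (0.12). LEU4 no longer passed when WT replicate 2 was left out (log2 fold change 1.49, adjusted p = 0.062 from limma), nor without WT replicate 3 (1.42 and 0.092). LEU4 also failed with the trended and robust variances of limma (1.55, adjusted p = 0.056 from limma). With sua7-1 replicate 2 as its single mutant library it had 1.33 (adjusted p = 0.21 from limma).

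In the fit relative to the library median, the median log2 fold change of the 21 genes was -0.71 and that of all genes -0.20. Under that scaling ABF2 and PDA1 (1.78) passed upward, and NDE1 (-1.53), ATP1 (-2.51) and PDX1 (-3.74) passed downward. The remaining genes of the list, POR1 and CIT1 among them, passed in neither direction. The fit of PDA1 includes WT replicate 4, which was scaled by a median over only 38 genes. How far the call of PDA1 depends on that library was not tested.

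**Figure D5:**
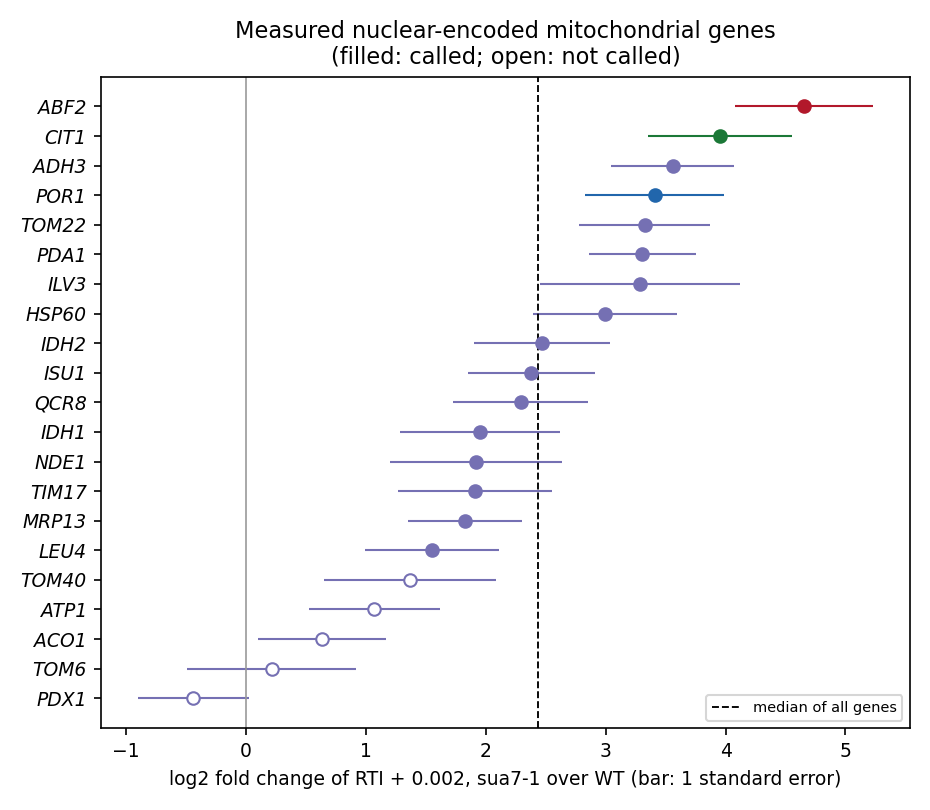
Log2 fold change of RTI + 0.002 (sua7-1 over WT) of the 21 measured nuclear-encoded mitochondrial genes, with bars of 1 standard error from limma, filled points for genes that passed the limits and open points for those that did not. The dashed line is the median of all 337 genes at 2.44, which ABF2, CIT1 and POR1 exceed.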

How the data were processed

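GRO-seq libraries of 3 sua7-1 and 4 WT samples were analysed. The authors trimmed adapters with cutadapt, aligned reads to S288C (R64-3-1 in the paper's methods, R64 in the submitters' processing notes, with no aligner given in the sources used here) and deposited for each gene and library the ratio of downstream to upstream reads, the RTI. Whether window counts used the strand is not stated for this step. The library size cancels in this ratio. Deposited columns with the authors' means, log2 ratio and p-value were not used, nor was a second part of the table that repeats rows (168), ABF2 among them.

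Symbols, positions and sequences came from the RefSeq annotation of R64, which matched 331 of 337 systematic names. The fit across all genes was made with limma (version 3.58.1, R version 4.3.3). RTI values were transformed to log2(RTI + 0.002), strain was the single term and missing values were left out. A call needed a log2 fold change beyond 1 together with a p under 0.05 after Benjamini-Hochberg adjustment over all 337 genes, and "rose" and "fell" refer to this call. The script was tested on simulated data. Positions were handled in Python 3.11.15. The study used a one-sided test per gene, and such a test with unequal variance, a ratio of means above 2 and an unadjusted p under 0.05 was kept as an alternative. Other alternatives were the constants 0.0005 and 0.01, an RTI of 0 taken as missing, filters on genes (values in 6 or more libraries, or a mean RTI of 0.01 or more), trended and robust variances in limma, scaling of libraries to their median, the replicate number as a block, and leaving out single libraries.

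Genes named are ABF2, POR1 and CIT1, the 3 genes most like each, the measured genes of the mitochondrial list and the next genes downstream. The members, lists and tests were chosen with earlier results of these data known. The paper names 3 biological replicates per strain, and which of the 4 WT libraries these are is not given, so part of the WT spread behind the p-values may be technical.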

Additional observations from a re-analysis of the deposited data

How the results depend on the processing

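ABF2, POR1 and CIT1 were chosen with the contrast known, so their calls only describe the dependence on the settings and are not a test. These calls were kept in each of 15 alternatives, except for POR1 and CIT1 in the fit on values divided by the library's median RTI. That scaling gave log2 fold changes of 0.48 for POR1 and 1.69 for CIT1, 21 upward calls over all genes in place of 253 (55 downward in place of 3), and a median of -0.71 for the 21 mitochondrial genes in place of 2.29. With 1 library left out, the log2 fold change ran from 4.22 to 5.01 for ABF2, from 3.10 to 3.96 for POR1 and from 3.35 to 4.43 for CIT1, the upward calls over all genes from 213 to 277 and the median of the mitochondrial genes from 1.95 to 2.66. With an RTI of 0 taken as missing, CIT1 had 3.35. A one-sided test with unequal variance per gene, at an unadjusted p under 0.05 and a ratio of means above 2, passed 191 genes. Same-numbered libraries of both strains correlated in their deviations at 0.13, -0.02 and -0.03 across genes, so the numbers were not taken as pairs. The replicate block was fitted without WT replicate 1, which has no mutant library of the same number. It gave 261 upward calls, with 5.11 for ABF2, 3.90 for POR1 and 4.41 for CIT1. Leaving out WT replicate 1 without a block gave 277 calls, with 5.01, 3.96 and 4.43. The 3 genes have only 2 pairs of same-numbered values, because WT replicate 4 holds none for them. Under the block the calls of LEU4 and TIM17 were lost. Read numbers are not known, so depth limits how far a value such as the 0 of CIT1 can be read.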
